A study of Labeotropheus fuelleborni and Maylandia zebra with 12 samples.

Results

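The genes described here are the cell cycle and DNA replication genes measured in the replacement teeth and the taste bud epithelium of 2 cichlid fishes from Lake Malawi, Labeotropheus fuelleborni (L. fuelleborni) and Maylandia zebra (M. zebra). The rule that picks them uses gene names and no measured value, and was set with earlier results of these data known. It takes the mcm, orc, cdc, cdk, cyclin A, B, D, E, G and H, pola, pold, pole, rfc, rpa, aurk, plk, bub and cenp families, together with pcna, mki67 and tyms. Of 26490 features in the count table, 103 matched. The same rule also names top2a, rrm1 and rrm2, which were not analysed here. The cdc and cdk families include genes that share a name stem with the cell cycle genes and act elsewhere in the cell, and those with a cdc name are described last. Roles below were given by gene name, so that the other families can hold such genes too.

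The 4 groups of 3 libraries each were replacement tooth of L. fuelleborni (numbered 0, 3 and 4), taste bud of L. fuelleborni (1, 2 and 4), replacement tooth of M. zebra (0, 1 and 3) and taste bud of M. zebra (1, 2 and 3). Counts given below for the 3 libraries of a group are in the order of these numbers. The labels give no treatment, age or genotype. A replacement tooth is an unerupted tooth, here drawn from its crypt in the jaw bone after the soft tissue outside the bone had been cleared away. The taste bud samples were strips of epithelium from the lip side of the outer tooth row, so that they hold the covering epithelium as well as taste buds. Nothing in the labels says whether the libraries of a group came from separate animals, and p-values then measure only the spread between these libraries, which may be technical. In such whole-tissue samples, fewer cells of a type and less RNA per cell cannot be told apart.

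A cell copies its DNA once per division. Origins are licensed by the origin recognition complex (orc) and the helicase subunits (mcm), and fired by cyclin-dependent kinases (cdk) with their cyclins (ccn). The DNA is copied by polymerases (pola, pold, pole). Of these, pold and pole are held on the DNA by the sliding clamp pcna and its loader (rfc). Mitotic kinases (aurk, plk), the spindle checkpoint (bub) and the kinetochore (cenp) then divide the copies. Cichlids replace their teeth throughout life, and taste bud cells are likewise renewed from the epithelium around them.

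Library totals ranged from 72226 to 300663 counts, so that 1 count was worth between 3.02 and 14.4 CPM (counts scaled to a common library size, on library sizes corrected by TMM). The libraries of lowest total were all M. zebra taste bud. On average 1 count was worth 5.54 CPM in a tooth library and 9.2 in a taste bud library. Equal summed counts therefore stand for a lower level in tooth, and ratios below divide the sums by summed library sizes. The tissue labels were checked on marker lists. The summed tooth mineral matrix genes lay between 8480 and 42400 CPM in tooth and between 170 and 1430 in taste bud, and the oral keratinocyte genes between 452 and 1230 CPM in tooth and between 1270 and 7690 in taste bud. The taste receptor cell genes lay between 628 and 928 CPM in tooth and between 1000 and 3730 in taste bud, with 4 of 12 genes at 0 counts in all libraries. That sum was mostly trpm5, with 733 counts in tooth against 1320 in taste bud, and itpr3 of the same list had 105 against 12. Of the 5 genes of this list with 15 or more counts, 2 were called towards tooth and 2 towards taste bud, and their median log2FC of tooth over taste bud was 2.75, so the list as a whole did not separate the tissues the way the labels do. Markers of other cells moved with tissue as well. Summed levels of 6 osteoclast genes lay between 49.3 and 558 CPM in tooth and between 0 and 14.4 in taste bud, and those of 6 endothelial genes between 136 and 368 in tooth and between 0 and 28.0 in taste bud. The ranges overlapped for 7 immune genes (105 to 764 in tooth, 83.9 to 927 in taste bud), 5 muscle genes (96.6 to 419 and 116 to 265) and 3 erythrocyte genes (11.7 to 42.9 and 11.4 to 43.1). Their part in the differences below was not tested. The ribosomal protein genes held between 1.40% and 6.50% of a library's counts, and the 3 highest libraries were L. fuelleborni taste bud replicates 1 and 2 and tooth replicate 4. A feature with no gene name, LOC105941146, held 11.9% to 26.4% of the counts of taste bud libraries and 0.0596% to 0.778% of those of tooth libraries. With it left out, the calls of the main test below changed only for cdc40 in M. zebra, which then passed (log2FC 2.28, adjusted p = 0.046, edgeR). The kit marks strand, but the sources used here do not give the strand setting used in counting, and reads at any gene named below could in part stem from a gene on the opposite strand.

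Most of these genes, like most of all features, were counted rarely. Of the 103, 45 (43.7%) had 15 or more counts over all 12 libraries. The share was 56.3% for the 10619 features with a gene name and 40.6% for all 26490 features. Another 53 of the 103 had between 1 and 14. The other 5 had none: plk1, cenpn, cdk15, mcm3ap and ccnb1ip1. A count of 0 over the 12 libraries allows up to 1.53 CPM of all 1958614 counts, counting error only. The median total was 12 counts, against 19 for all named features and 8 for all features. The threshold of 15 fell between cdk9, with 14 counts, and mcm3, with 16. Among genes of the division phase itself, singled out after their values were seen (as are pold1, rfc3 and rfc4 below), the mitotic kinase gene cdk1 had 7 counts, its partner ccnb1 had 4, the spindle kinase gene aurka had 2, and bub1 and cdc20 had 1 each. Differences in any of these genes were not detectable at this depth.

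A single gene, pold2, carried 8405 of the 12602 counts of all 103 genes. It was 16th of all 26490 features by total count, a rank that is not corrected for gene length. It held between 66.4% and 92.5% of these genes' counts in tooth libraries and between 13.9% and 52.3% in taste bud libraries. The summed level of all 103 genes was 9315 ± 5081 CPM in tooth, against 3931 ± 2198 in taste bud (SD, n = 6 each). Without pold2 the sums were 2048 ± 457 CPM in tooth, against 2351 ± 812 in taste bud (medians 2055 and 2084). Without rfc5, tyms and cdc40 as well, the remaining 99 genes summed to 1341 ± 292 CPM in tooth, against 1191 ± 187 in taste bud. The libraries of the tissues overlapped in all of these sums. For all 103 genes the lowest tooth library was at 5773 CPM and the highest taste bud library at 8091.

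**Figure D1:**
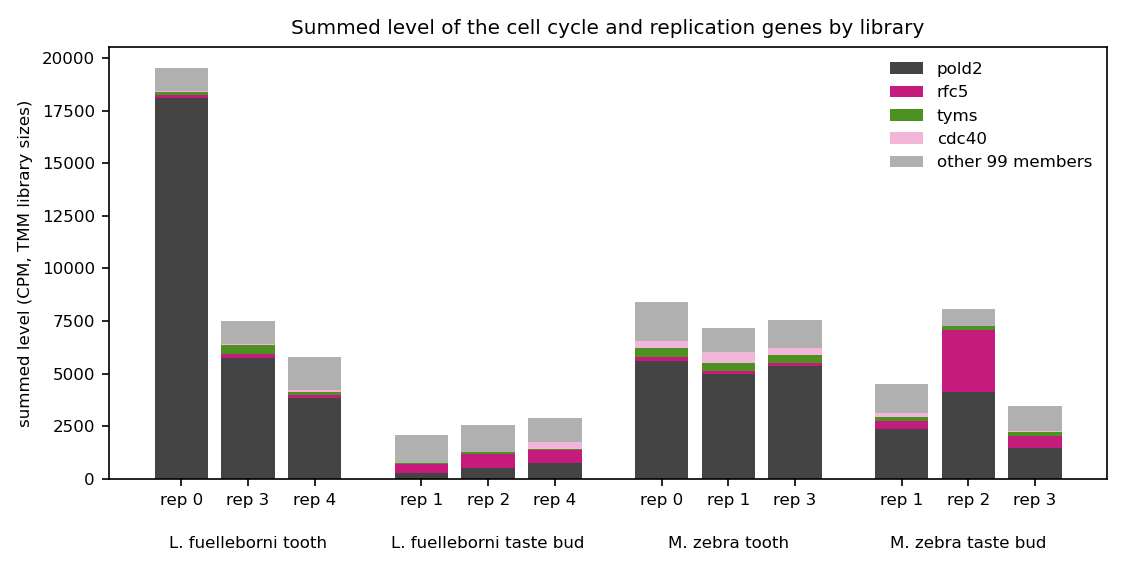
Summed level of the 103 cell cycle and replication genes in each library (CPM on TMM library sizes), with the 4 genes of highest total count in colour. The dark pold2 segment makes up at least 66.4% of every tooth bar, and the grey segment of the other 99 genes averages 1341 CPM in tooth and 1191 CPM in taste bud.

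Tooth was compared with taste bud in a fit across all features with 15 or more counts, a threshold that does not look at the groups. Of the 45 genes, 10 (22.2%) passed at an adjusted p of 0.05 with edgeR's quasi-likelihood test, against 32.9% of all 10760 features tested. Of these, 6 (13.3%) were higher in tooth, against 23.2% of all features, namely cdc45, pold2, tyms, cdc37, cdc42ep3 and cdc42ep4. The 4 higher in taste bud (8.89%, against 9.71% of all features) were rfc5, rfc2, plk2 and cenpk. The median log2 fold change (log2FC, tooth over taste bud) was 0.28 for the 45 genes and 0.68 for all features. The share higher in tooth and the median both lay below those of the whole table, and no test of that difference was made. For 2 of the 45 genes, cdc45 with tooth above (10.8% of all features) and rfc5 with taste bud above (3.49%), the 6 libraries of one tissue all lay beyond the 6 of the other, against 14.3% of all features in either direction. 

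**Figure D2:**
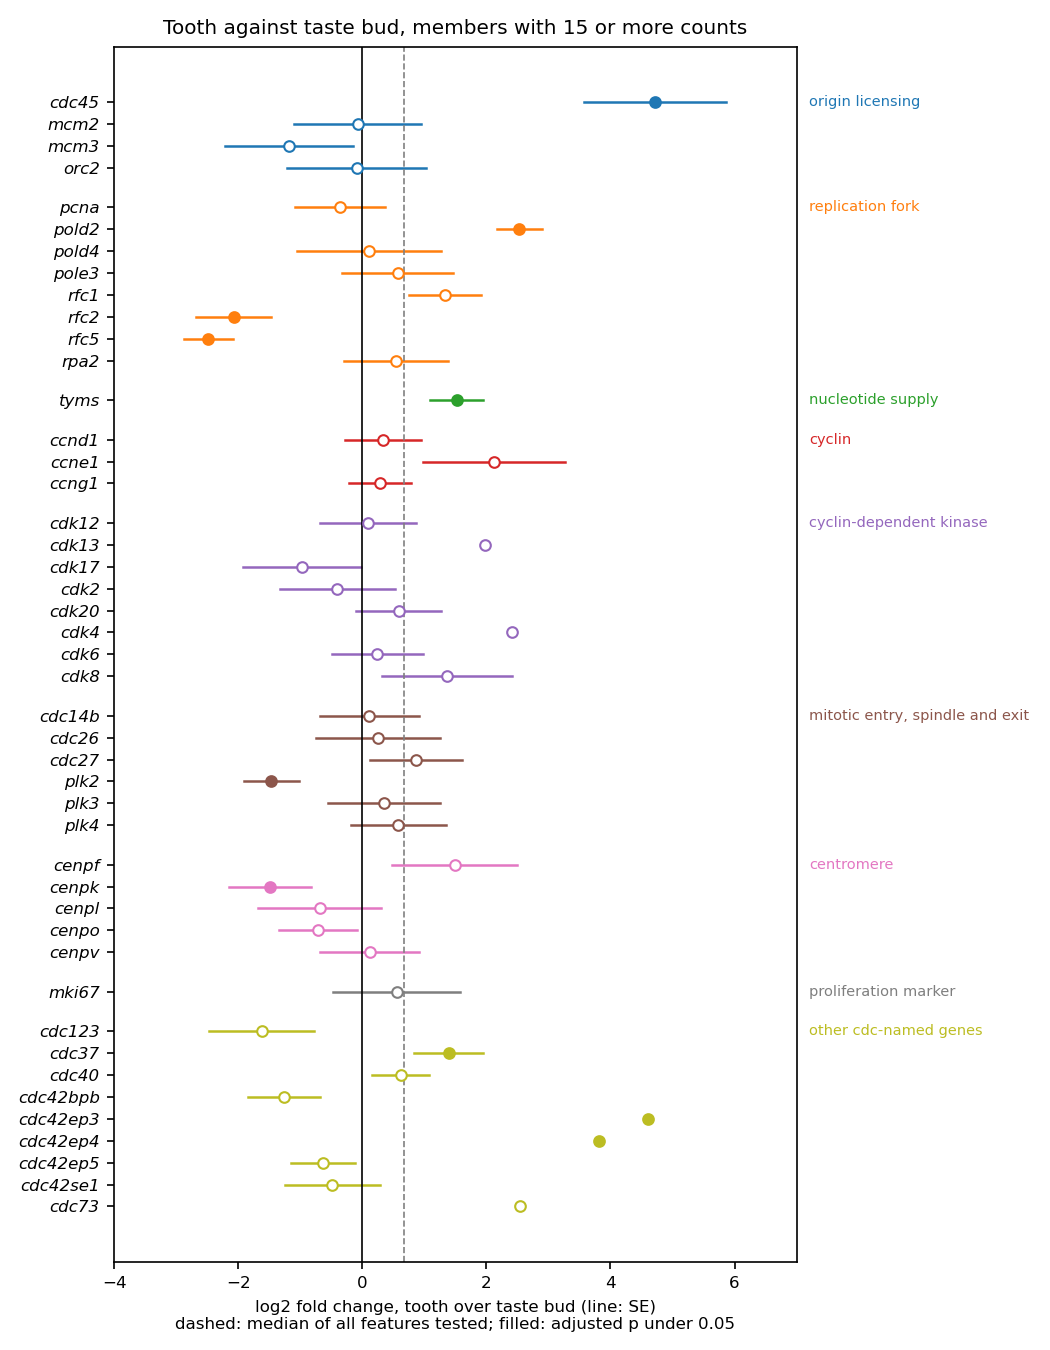
Log2 fold change of tooth over taste bud, mean of both species, for the 45 genes with 15 or more counts, ordered by role (points, filled where the adjusted p is under 0.05; lines, SE, left out where all libraries of a group were at 0). Of the 45 points 10 are filled, 6 to the right and 4 to the left of 0, and the dashed line marks the median of all 10760 features at 0.68.

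The main test used the stricter filter of edgeR, which asks for about 10 counts in at least 3 libraries and which 11 of the 103 genes passed. A gene could pass it through 1 group alone, so a count over these 11 does not speak for the 103. Of the 11, 5 were higher in tooth (cdc45, pold2, rfc1, tyms and cdc37), against 32.6% of all 2962 features tested, and 3 were higher in taste bud (rfc2, rfc5 and plk2), against 20.2% of all features. The other 3, ccng1, cdc40 and cdc42ep5, did not pass. In either direction 8 of 11 passed, against 52.8% of all features. The tissues did not overlap for 2 of the 11, cdc45 (tooth above, 20.1% of all features) and rfc5 (taste bud above, 9.42%), against 29.5% in either direction. RLE scaling moved the median log2FC of all features to 0.41, against 0.21 with TMM, and called the same 8 genes. Unless another fit is named, values below are from this test. Without the 3 libraries richest in ribosomal transcripts, which left 1 L. fuelleborni taste bud library, fewer of the 8 passed. The log2FC of rfc1, rfc2 and plk2 moved to 0.75, -1.23 and -0.73, and that of cdc45 to 5.69. The share of all features that passed there is not given, so fewer calls cannot be told apart from a general loss of power.

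**Figure D3:**
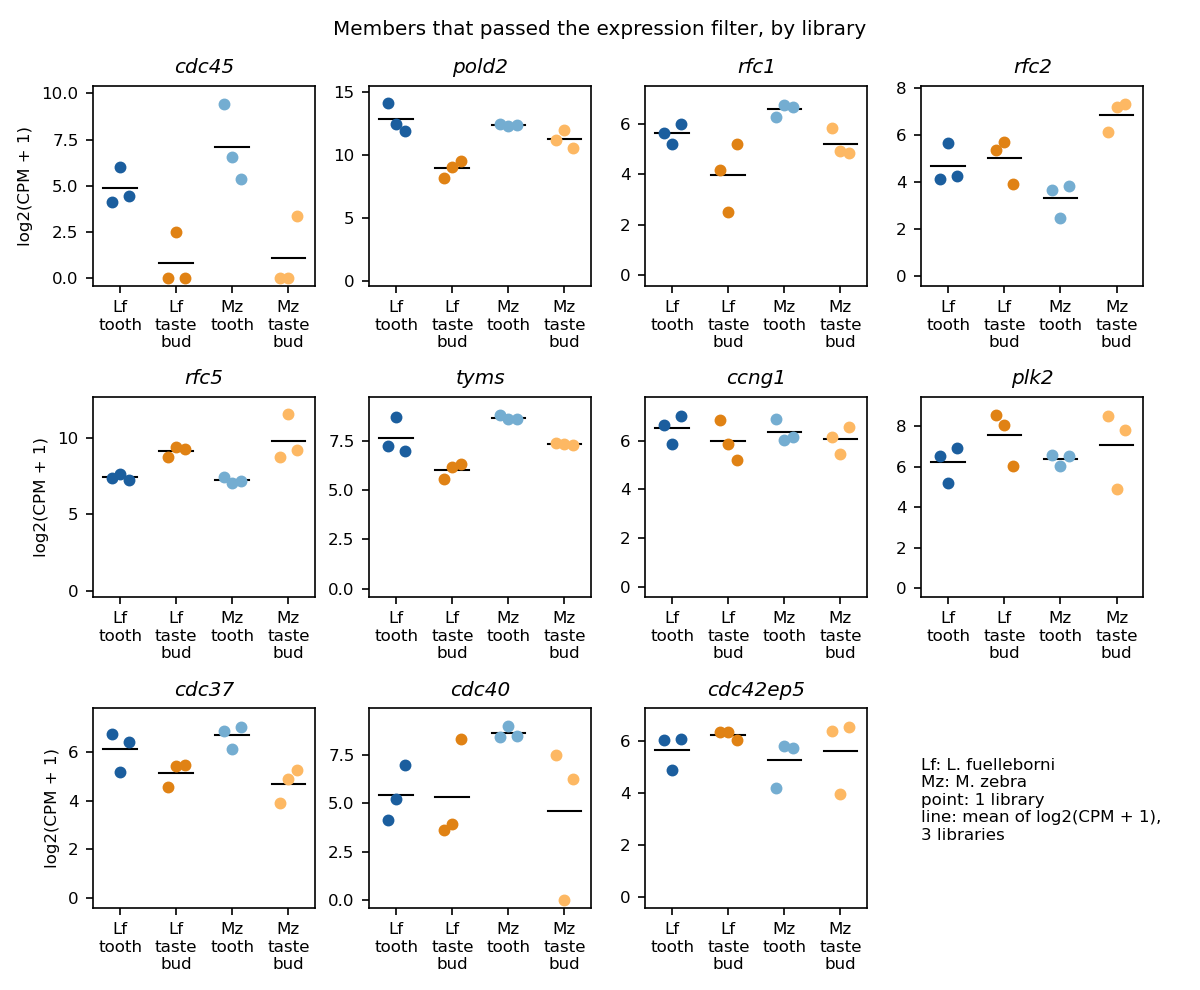
Level of each of the 11 genes that passed the filter, as log2(CPM + 1), in the 12 libraries (points) with the mean of each group (lines). For cdc45 the tooth points all lie above the taste bud points, with M. zebra tooth replicate 0 highest, and for rfc5 the taste bud points all lie above, with M. zebra taste bud replicate 2 highest.

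Among the genes that prepare and fire origins, only cdc45 reached the filter. Its protein joins the MCM ring and the GINS complex to form the active replicative helicase. It had 2, 9 and 7 counts in L. fuelleborni tooth, against 0, 1 and 0 in its taste bud. In M. zebra it had 119, 20 and 9 counts in tooth, against 0, 0 and 1 in taste bud. Every tooth library lay above every taste bud library when scaled to CPM, and 1 tooth library, M. zebra replicate 0, held 119 of the gene's 168 counts. With 166 counts in tooth against 2 in taste bud, the ratio was 53.2 (95% counting interval 14.5 to 443), with a log2FC of 4.77 (SE 1.40, adjusted p = 8.93e-05, edgeR). Without M. zebra tooth replicate 0 the log2FC was 3.78 (SE 1.27, adjusted p = 0.00118). It was 5.64 without L. fuelleborni taste bud replicate 2 and 6.09 without M. zebra taste bud replicate 3, each of which leaves a taste bud group with no count. With voom and limma and the replicate number as a block it was 3.34 (SE 0.62, adjusted p = 0.000133), and 3.82 in M. zebra alone (adjusted p = 0.000735). Without the block, a fit added after seeing the data, the values were 3.39 (SE 0.64, adjusted p = 0.000144) and 3.92 (adjusted p = 0.000805). The call also passed without the 3 libraries richest in ribosomal transcripts (adjusted p = 0.00341).

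The other licensing genes were near the limit of the data. The helicase subunit genes mcm2 and mcm3 had 11 and 7 counts in tooth and 6 and 9 in taste bud. For orc2, a subunit of the origin recognition complex, there were 13 counts in tooth against 10 in taste bud, a ratio of 0.83. Of those 10, 9 were in M. zebra taste bud replicate 2. None of the 3 passed among features with 15 or more counts (adjusted p of 0.971 for mcm2, 0.339 for mcm3 and 1 for orc2, edgeR). The remaining 14 genes placed in this role by name each had fewer than 15 counts.

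At the replication fork, pold2 encodes an accessory subunit of polymerase delta, which copies the lagging strand. It had 2202, 804 and 1271 counts in L. fuelleborni tooth, against 51, 112 and 103 in its taste bud. In M. zebra there were 959, 1074 and 1219 counts in tooth, against 168, 284 and 158 in taste bud. Tooth lay above taste bud within each species, while across species M. zebra taste bud replicate 2, at 4103 CPM, lay above L. fuelleborni tooth replicate 4, at 3836. The level was 7268 ± 5342 CPM in tooth, against 1580 ± 1445 in taste bud (SD, n = 6 each), 5.51-fold higher by summed counts, with a log2FC of 2.58 (SE 0.38, adjusted p = 6.32e-06, edgeR). Its call passed in all 12 leave-one-out fits, each without 1 library (log2FC 2.09 to 2.77). The other delta subunit gene above 15 counts, pold4, had 10 counts in tooth against 7 in taste bud, a ratio of 0.92. It did not pass among features with 15 or more counts (adjusted p = 0.949, edgeR). The catalytic subunit gene, pold1, had 3 counts in all.

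The subunit genes of the clamp loader, replication factor C, that passed the filter were not all called in the same direction. In the main test the large subunit gene rfc1 was called towards tooth, and the small subunit genes rfc2 and rfc5 towards taste bud. A gene could pass this filter through 1 group alone, and rfc1 was not called among features with 15 or more counts. The rfc2 log2FC was -3.58 in M. zebra and -0.42 in L. fuelleborni. For rfc1 there were 6, 5 and 21 counts in L. fuelleborni tooth, against 3, 1 and 5 in its taste bud, and 13, 23 and 23 in M. zebra tooth, against 4, 2 and 3 in its taste bud. The tissues overlapped in L. fuelleborni and did not in M. zebra. Its level was 72.0 ± 28.2 CPM in tooth, against 28.4 ± 17.3 in taste bud (SD, n = 6 each; log2FC 1.40, SE 0.52, adjusted p = 0.0209, edgeR). The call was close to the threshold. It ended when any 1 of these libraries was left out: replicate 4 of L. fuelleborni tooth, replicate 2 of its taste bud, replicate 1 of M. zebra tooth, and replicates 2 and 3 of its taste bud (adjusted p 0.0505 to 0.0820), among features with 15 or more counts (adjusted p = 0.0537) and without the 3 libraries richest in ribosomal transcripts (log2FC 0.75, adjusted p = 0.315).

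For rfc5 the counts were 20, 27 and 50 in L. fuelleborni tooth, against 73, 140 and 86 in its taste bud. The M. zebra counts were 30, 28 and 32 in tooth, against 30, 206 and 63 in taste bud. Tooth levels were even, at 159 ± 23.2 CPM, and taste bud levels were 946 ± 999.9 (SD, n = 6 each), with M. zebra taste bud replicate 2 at 2976 CPM. The gene was 4.99-fold higher in taste bud by summed counts, at a log2FC of -2.45 (SE 0.40, adjusted p = 1.92e-05, edgeR). Without M. zebra taste bud replicate 2 the log2FC was -1.84 (SE 0.35, adjusted p = 0.000121). For rfc2 the counts were 2, 7 and 6 in L. fuelleborni tooth, against 7, 11 and 2 in its taste bud, where the libraries overlapped. They were 2, 1 and 3 in M. zebra tooth, against 5, 10 and 17 in its taste bud, where they did not. The log2FC was -2.00 (SE 0.57, adjusted p = 0.00275, edgeR), and the call ended without the 3 libraries richest in ribosomal transcripts (log2FC -1.23, SE 0.79, adjusted p = 0.226). The other small subunit genes, rfc3 and rfc4, had 3 and 11 counts in all.

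The sliding clamp gene pcna, a common marker of cells in S phase, had 23 counts in tooth against 23 in taste bud. It had 0, 3 and 9 counts in L. fuelleborni tooth, against 6, 8 and 6 in its taste bud. In M. zebra it had 1, 4 and 6 counts in tooth, against 1, 2 and 0 in taste bud. The L. fuelleborni level was 16.2 ± 14.3 CPM in tooth, against 38.4 ± 4.43 in taste bud, and the libraries did not overlap. In M. zebra it was 16.9 ± 10.4 in tooth, against 14.3 ± 14.5 in taste bud (SD, n = 3 each), and they overlapped. The gene did not pass among features with 15 or more counts (log2FC -0.36, SE 0.73, adjusted p = 0.744, edgeR). Neither did pole3, a subunit of polymerase epsilon (19 counts in tooth against 7 in taste bud, adjusted p = 0.643, edgeR), nor rpa2, of the protein that coats single-stranded DNA (23 and 8, adjusted p = 0.628, edgeR).

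Thymidylate synthase, encoded by tyms, makes the thymidine nucleotide that DNA alone requires. It had 18, 59 and 41 counts in L. fuelleborni tooth, against 8, 15 and 11 in its taste bud, and 77, 83 and 88 in M. zebra tooth, against 12, 11 and 17 in its taste bud. Tooth was above taste bud within each species. The 3 M. zebra tooth libraries were close together, at 407 ± 36.6 CPM (SD, n = 3), whereas the L. fuelleborni tooth libraries were spread, at 231 ± 166. Over both species the level was 319 ± 144 CPM in tooth, against 113 ± 54.0 in taste bud (SD, n = 6 each), with a log2FC of 1.57 (SE 0.38, adjusted p = 0.00112, edgeR). The call passed in all 12 leave-one-out fits (adjusted p 0.00039 to 0.0132).

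None of the 3 cyclin genes with 15 or more counts passed in tooth against taste bud. The G1 cyclin gene ccnd1 had 46 counts in tooth against 21 in taste bud (log2FC 0.33, SE 0.61, adjusted p = 0.710 among features with 15 or more counts, edgeR). The cyclin gene ccne1, which acts at entry into S phase, had 4, 2 and 4 counts in L. fuelleborni tooth, against 1, 0 and 0 in its taste bud, and 4, 6 and 5 in M. zebra tooth, against 1, 0 and 1 in its taste bud. Its tooth libraries lay above its taste bud libraries within each species, with a ratio of 5.34 (95% counting interval 1.63 to 27.7), and it missed the threshold (adjusted p = 0.0561, edgeR). The p53 target gene ccng1, whose cyclin is not tied to a phase of the cycle, was at 89.6 ± 29.9 CPM in tooth, against 68.8 ± 30.1 in taste bud (SD, n = 6 each; log2FC 0.36, SE 0.44, adjusted p = 0.501, edgeR).

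Among 16 cyclin-dependent kinase genes, 8 had 15 or more counts and none of them passed. The kinase genes of G1, cdk4 and cdk6, had 14 and 25 counts in tooth and 3 and 12 in taste bud (adjusted p of 0.140 and 0.835, edgeR). The S phase kinase gene cdk2 had 14 counts in tooth against 13 in taste bud, a ratio of 0.69 (adjusted p = 0.771, edgeR). Genes of kinases that act in transcription had 33 (cdk12), 23 (cdk13) and 25 (cdk8) counts in tooth, against 25, 13 and 7 in taste bud. For cdk17 and cdk20 there were 9 and 38 in tooth, against 11 and 20 in taste bud. The ratios of tooth to taste bud were 0.85 (cdk12), 1.135 (cdk13), 2.29 (cdk8), 0.52 (cdk17) and 1.22 (cdk20). The adjusted p-values of these 5 lay between 0.182 and 0.944 (edgeR). At unadjusted p under 0.05, where the share of all features was not taken, 0 of the 8 passed. That count is not read as a result about these genes.

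For the genes of mitotic entry, spindle and exit, plk2 was the one that passed. It encodes a polo-like kinase that acts in centriole duplication and is also induced by stress and growth signals. It had 11, 5 and 39 counts in L. fuelleborni tooth, against 65, 55 and 9 in its taste bud, and 16, 14 and 21 in M. zebra tooth, against 26, 2 and 24 in its taste bud. In each species 1 taste bud library fell among the tooth libraries or below them. The level was 82.4 ± 28.3 CPM in tooth, against 218 ± 146 in taste bud (SD, n = 6 each; log2FC -1.39, SE 0.48, adjusted p = 0.0171, edgeR). The call ended without M. zebra taste bud replicate 1 (adjusted p = 0.0603) and with voom and limma (adjusted p = 0.107 with the replicate block and 0.112 without it). Without the 3 libraries richest in ribosomal transcripts the log2FC was -0.73 (SE 0.60). The centriole kinase gene plk4 had 24 counts in tooth against 10 in taste bud, plk3 had 18 and 7, the phosphatase gene cdc14b had 22 and 12, and the genes cdc26 and cdc27 of the anaphase-promoting complex had 14 and 32 in tooth, against 6 and 11 in taste bud. These 5 did not pass (adjusted p 0.354 to 0.935, edgeR).

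Of 14 centromere and kinetochore genes, 5 had 15 or more counts. A gene of the constitutive centromere network, cenpk, had 6, 8 and 1 counts in L. fuelleborni tooth, against 7, 7 and 2 in its taste bud, and 2, 0 and 2 in M. zebra tooth, against 1, 9 and 4 in its taste bud. It was just past the threshold among features with 15 or more counts (log2FC -1.49, SE 0.66, adjusted p = 0.0497, edgeR), a fit made with all 12 libraries only. The kinetochore gene cenpf had 33 counts in tooth against 8 in taste bud (adjusted p = 0.155, edgeR). The genes cenpl, cenpo and cenpv had 12, 34 and 21 counts in tooth, against 10, 48 and 12 in taste bud (adjusted p 0.388 to 0.933, edgeR). Their ratios of tooth to taste bud were 0.77, 0.45 and 1.12. For cenpo the species leaned opposite ways. It had 13 counts in L. fuelleborni tooth against 43 in its taste bud, and 21 in M. zebra tooth against 5 in its taste bud. Within each species 1 of these 5 genes was called towards taste bud, against 7.17% of all features in L. fuelleborni and 5.41% in M. zebra. The proliferation marker gene mki67 had 2, 0 and 13 counts in L. fuelleborni tooth, against 9, 2 and 1 in its taste bud, and 3, 3 and 1 in M. zebra tooth, against 1, 0 and 0 in its taste bud. Its largest counts were in the deepest tooth library and in 1 taste bud library, and it did not pass (log2FC 0.56, SE 1.03, adjusted p = 0.656, edgeR).

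The 10 other cdc-named genes are best known for roles outside the division cycle itself, and 9 of them had 15 or more counts. The co-chaperone gene cdc37, whose protein brings kinases to Hsp90, had 13, 5 and 28 counts in L. fuelleborni tooth, against 4, 9 and 6 in its taste bud, and 20, 15 and 30 in M. zebra tooth, against 1, 2 and 4 in its taste bud. The tissues again overlapped in L. fuelleborni and did not in M. zebra. Its level was 90.9 ± 35.0 CPM in tooth, against 31.4 ± 11.6 in taste bud (SD, n = 6 each; log2FC 1.48, SE 0.49, adjusted p = 0.0103, edgeR), and the call ended without the 3 libraries richest in ribosomal transcripts (adjusted p = 0.0933). The CDC42 effector gene cdc42ep3 had 23 counts in tooth against 0 in taste bud, at least 4.92-fold higher with 3 counts over the taste bud libraries as the floor. Its relative cdc42ep4 had 24 and 1, a ratio of 15.4 (95% counting interval 2.51 to 633). Among features with 15 or more counts both passed (adjusted p of 0.00303 and 0.00873, edgeR). Another gene of this family, cdc42ep5, was at 47.8 ± 20.2 CPM in tooth, against 69.3 ± 28.4 in taste bud and did not pass (adjusted p = 0.349, edgeR). In the fit of features with 15 or more counts, the kinase gene cdc42bpb had 34 counts in tooth against 53 in taste bud (adjusted p = 0.0690, edgeR). The translation factor assembly gene cdc123 had 10 and 22 there (adjusted p = 0.0996, edgeR). For cdc42se1 there were 18 and 13, a ratio of 0.89 (adjusted p = 0.648, edgeR). For cdc73, of the PAF1 transcription complex, there were 26 and 7 (adjusted p = 0.0780, edgeR).

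The splicing factor gene cdc40 varied widely between single libraries of a group. It had 2, 5 and 41 counts in L. fuelleborni tooth, against 2, 3 and 45 in its taste bud. In M. zebra it had 58, 110 and 80 counts in tooth, against 13, 0 and 8 in taste bud. The high L. fuelleborni libraries were the tooth and taste bud samples that both carry the number 4, and only in M. zebra did the tissues not overlap. Over both species it did not pass (log2FC 0.72, SE 0.65, adjusted p = 0.362, edgeR). It passed without L. fuelleborni taste bud replicate 4 (log2FC 2.15, SE 0.60, adjusted p = 0.00149). With voom and limma it passed both with the replicate block (log2FC 1.765, SE 0.72, adjusted p = 0.0454) and without it (log2FC 1.83, SE 0.75, adjusted p = 0.0456). Without the 3 libraries richest in ribosomal transcripts the log2FC was -0.72 (SE 0.59, adjusted p = 0.317).

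The tissue difference was next taken within each species. In L. fuelleborni 4 of the 11 genes passed, against 38.6% of all features: cdc45, pold2 and tyms higher in tooth (24.6% of all features were) and rfc5 higher in taste bud (13.9%). In M. zebra 5 passed, against 42.6%: cdc45, cdc37 and tyms higher in tooth (26.9%) and rfc2 and rfc5 higher in taste bud (15.7%). Among features with 15 or more counts, 8 of the 45 genes passed in L. fuelleborni, against 20.8% of all features, with 4 higher in tooth (13.6%) and 4 in taste bud (7.17%). In M. zebra 5 of the 45 passed, against 16.6%, with 2 higher in tooth (11.2%) and 3 in taste bud (5.41%). For cdc45 the ratio of tooth to taste bud was 15.96 in L. fuelleborni (95% counting interval 2.52 to 665; adjusted p = 0.0315) and 59.9 in M. zebra (10.6 to 2381; adjusted p = 0.000525), both in edgeR. The L. fuelleborni call rested on 18 counts and 1 count, and ended without tooth replicate 3 (adjusted p = 0.124), taste bud replicate 1 (adjusted p = 0.0911) or taste bud replicate 4 (adjusted p = 0.0578), in the fit that adjusts for ribosomal share (adjusted p = 0.0655) and without the 3 libraries richest in ribosomal transcripts (adjusted p = 0.181). In that last setting 1 of the 4 L. fuelleborni calls, pold2, still passed. In M. zebra the log2FC of cdc45 was 5.86 (SE 1.96) with all libraries and 3.87 (SE 1.81, adjusted p = 0.0277, edgeR) without tooth replicate 0.

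For tyms the log2FC was 1.80 (SE 0.55, adjusted p = 0.0102) in L. fuelleborni and 1.33 (SE 0.53, adjusted p = 0.0465) in M. zebra (edgeR). The L. fuelleborni call ended without tooth replicate 3 (log2FC 1.01, adjusted p = 0.187) or taste bud replicate 1 (adjusted p = 0.0607), with no filter (adjusted p = 0.0615) and without the 3 libraries richest in ribosomal transcripts (adjusted p = 0.100). The M. zebra call ended in 10 of the 12 leave-one-out fits (adjusted p 0.0546 to 0.137), and passed in the fits without replicate 3 or replicate 4 of L. fuelleborni tooth, with log2FC between 1.24 and 1.49 over all 12. It also ended among features with 15 or more counts (adjusted p = 0.113), with no filter (adjusted p = 0.123), with upper quartile scaling (adjusted p = 0.0542) and with unblocked voom and limma (adjusted p = 0.0508). For rfc5 the log2FC was -1.74 (SE 0.57, adjusted p = 0.0181) in L. fuelleborni and -3.15 (SE 0.57, adjusted p = 0.000187) in M. zebra (edgeR). It missed the threshold in L. fuelleborni without tooth replicate 0 (adjusted p = 0.0558) or taste bud replicate 2 (adjusted p = 0.0572) and without the 3 libraries richest in ribosomal transcripts (adjusted p = 0.0833), and was -1.84 (SE 0.52, adjusted p = 0.00964) in M. zebra without taste bud replicate 2. For cdc37 the M. zebra log2FC was 1.91 (SE 0.75, adjusted p = 0.0321, edgeR), a call that ended without tooth replicates 0 or 3 or any 1 taste bud library of that species (adjusted p 0.0630 to 0.129), among features with 15 or more counts (adjusted p = 0.0878) and with no filter (adjusted p = 0.101). The M. zebra log2FC of cdc40 was 2.22 (SE 0.92, adjusted p = 0.0551, edgeR), which missed the threshold and passed without M. zebra taste bud replicate 1 (adjusted p = 0.0333), without any 1 of the L. fuelleborni taste bud libraries (adjusted p 0.00917 to 0.0406) and among features with 15 or more counts (adjusted p = 0.00723). It also passed with RLE scaling (adjusted p = 0.0447), with no filter (adjusted p = 0.00611) and with blocked voom and limma (adjusted p = 0.0129). In all, this value passed in 4 of 12 leave-one-out fits and in 7 of 10 other settings. For plk2 the log2FC was -1.48 (SE 0.68, adjusted p = 0.0855) in L. fuelleborni and -1.30 (SE 0.69, adjusted p = 0.135) in M. zebra, and both passed without M. zebra taste bud replicate 2 (adjusted p of 0.0365 and 0.0328, edgeR). Without L. fuelleborni taste bud replicate 4 the L. fuelleborni value of plk2 passed too (adjusted p = 0.0112).

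The level of pold2 in L. fuelleborni was 9223 ± 7732 CPM in tooth, against 520 ± 224 in taste bud, and in M. zebra 5313 ± 309 in tooth and 2639 ± 1343 in taste bud (SD, n = 3 each). The log2FC was 4.15 (SE 0.55, adjusted p = 8.09e-06) in L. fuelleborni and 1.01 (SE 0.54, adjusted p = 0.140) in M. zebra (edgeR). With the ribosomal share as a covariate the M. zebra value passed (log2FC 1.25, SE 0.41, adjusted p = 0.0216). Without L. fuelleborni tooth replicate 0, the highest of all libraries, the L. fuelleborni value was 3.196 (SE 0.54, adjusted p = 9.96e-05). The difference between the species in this log2FC was 3.14 (SE 0.77) and did not pass when adjusted over all features (adjusted p = 0.189, edgeR). The corresponding differences were 3.16 for rfc2 (SE 1.13, adjusted p = 0.480), which was -0.42 in L. fuelleborni and -3.58 in M. zebra, and -3.02 for cdc40 (SE 1.30, adjusted p = 0.623), which was -0.03 without L. fuelleborni taste bud replicate 4. In all, 0 of the 11 genes and 0 of all 2962 features passed this test with edgeR, and 0 of the 11 with DESeq2 or with voom and limma. At unadjusted p under 0.05, 3 of the 11 did. Among features with 15 or more counts, 0 of the 45 genes and 0.0186% of all features passed, and 7 of the 45 did at unadjusted p under 0.05. The share of all features at that unadjusted cutoff was not taken, so these counts are not read as a result about these genes.

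**Figure D4:**
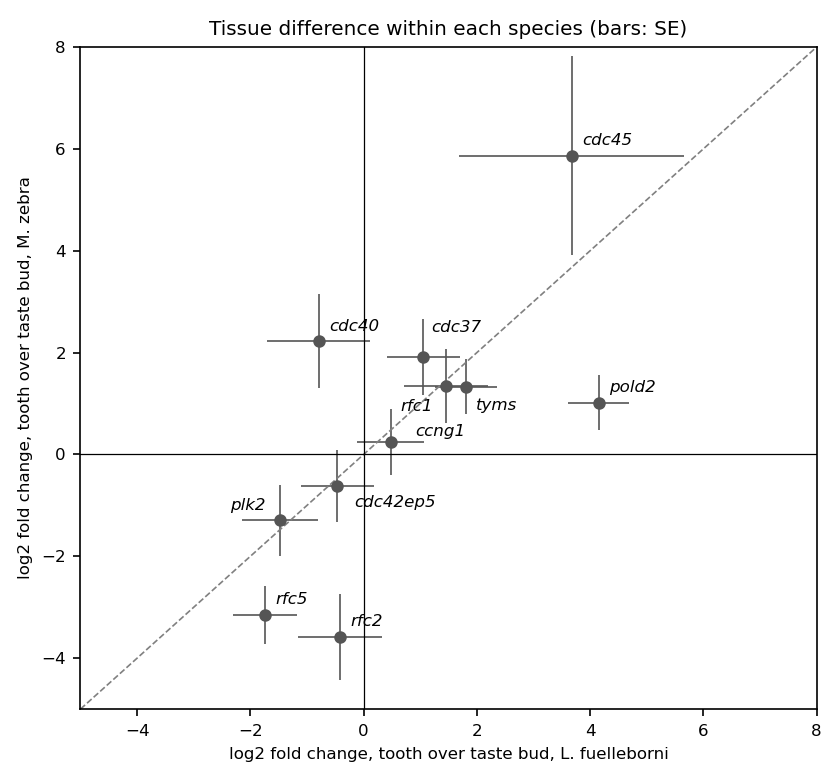
Log2 fold change of tooth over taste bud in L. fuelleborni (horizontal) and M. zebra (vertical) for the 11 genes that passed the filter, with SE bars and the line of equal values dashed. The gene pold2 lies below the line, at 4.15 and 1.01, rfc2 lies below it, at -0.42 and -3.58, and cdc40 lies above it, at -0.79 and 2.22.

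The species were then compared within each tissue. In tooth, 0 of the 11 passed with edgeR (1.52% of all features did) and 0 with DESeq2 or with voom and limma. At unadjusted p under 0.05, where the share of all features was not taken, 2 did, cdc40 and cdc45. These 2 had lower values in L. fuelleborni tooth than in M. zebra tooth: cdc40 was at 58.6 ± 57.2 CPM in L. fuelleborni and 400.2 ± 95.7 in M. zebra (log2FC -2.63, SE 0.88, adjusted p = 0.198), and cdc45 at 34.0 ± 26.4 and 276 ± 364 (log2FC -3.03, SE 0.83, adjusted p = 0.0713), both in edgeR (SD, n = 3 each). Among features with 15 or more counts both passed (adjusted p of 0.00299 and 0.00300, edgeR), as 2 of 45 genes against 1.42% of all features in either direction and 0.799% higher in M. zebra. The cdc45 value moved to -1.01 (adjusted p = 0.938) in 1 of the 12 leave-one-out fits, the one without M. zebra tooth replicate 0. It passed without M. zebra tooth replicate 1 (adjusted p = 0.0423) or 3 (adjusted p = 0.0193), and without L. fuelleborni taste bud replicate 4 both cdc45 (adjusted p = 0.0184) and cdc40 (adjusted p = 0.0143) did.

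In taste bud, 1 of the 11 passed, pold2, against 4.29% of all features in either direction and 2.26% higher in M. zebra. At unadjusted p under 0.05 (edgeR), where the share of all features was not taken, 4 of the 11 did. That number is not read as a result about these genes. The gene pold2 was also the one of 45 among features with 15 or more counts (2.45% of all features, 1.09% higher in M. zebra). It was lower in L. fuelleborni, at 520 ± 224 CPM, than in M. zebra, at 2639 ± 1343 (SD, n = 3 each; log2FC -2.34, SE 0.55, adjusted p = 0.0144, edgeR), and the libraries of the species did not overlap. The call ended without L. fuelleborni taste bud replicate 1 (adjusted p = 0.0742) or 2 (adjusted p = 0.0534) and without M. zebra taste bud replicate 2 (adjusted p = 0.137). The ribosomal share also differed between these groups, from 3.15% to 6.50% in L. fuelleborni taste bud and from 1.40% to 2.20% in M. zebra taste bud. With that share as a covariate the log2FC was -1.20 (SE 0.54, adjusted p = 0.430), and without the 3 libraries of highest share it was -1.69 (SE 0.60, adjusted p = 0.166). This comparison uses the same taste bud libraries as the pold2 tissue comparisons above.

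Other genes of the same processes were taken from 4 lists, outside the 103. As above, 32.6% of all features past the filter were called towards tooth and 20.2% towards taste bud, against 23.2% and 9.71% of features with 15 or more counts, and a gene could pass the filter through 1 tissue alone. Of 29 replication partners, 5 passed the filter and 2 of these were higher in tooth, which were also the 2 called of 9 with 15 or more counts. They were dut, which keeps uracil out of DNA, with 216 counts in tooth against 31 in taste bud (4.47-fold, log2FC 2.02, SE 0.45, adjusted p = 0.000332), and the licensing factor gene cdt1, with 191 and 48 (2.55-fold, adjusted p = 0.00476), both in edgeR. The GINS subunit gene gins1, whose protein works with the product of cdc45, had 54 counts in tooth against 61 in taste bud and did not pass (log2FC -0.98, SE 0.46, adjusted p = 0.0717, edgeR), nor did atad2 (adjusted p = 0.253). In 2 of 22 settings gins1 passed, towards taste bud. These were the fit without L. fuelleborni taste bud replicate 1 (adjusted p = 0.0491) and voom and limma with the replicate number as a block (log2FC -1.04, adjusted p = 0.0476). Of 21 genes of G1/S control, 4 had 15 or more counts, of which 2 were higher in tooth, and 1 passed the filter: the CDK4 and CDK6 inhibitor gene cdkn2c, with 91 counts in tooth against 1 in taste bud, a ratio of 58.4 (95% counting interval 10.2 to 2330; adjusted p = 7.85e-06, edgeR).

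Of 46 G2/M and spindle genes, 5 passed the filter, 2 of them higher in tooth, 1 higher in taste bud and 2 not called. Of 22 with 15 or more counts, 3 were called towards tooth and 2 towards taste bud. The anaphase-promoting complex gene anapc5 had 337 counts in tooth against 1 in taste bud, a ratio of 216 (38.5 to 8563; adjusted p = 5.07e-08), and it was counted between 13 and 84 times in every tooth library. Another gene of that complex, anapc1, had 61 counts in tooth against 22 in taste bud and did not pass (adjusted p = 0.165), though it did without L. fuelleborni taste bud replicate 4 (adjusted p = 0.0327). The spindle checkpoint kinase gene ttk had 95 counts in tooth against 9 in taste bud (6.77-fold, log2FC 2.73, SE 0.63, adjusted p = 0.000187), and the kinetochore gene spc25 had 59 and 79 (log2FC -1.28, SE 0.47, adjusted p = 0.0212), all in edgeR. The spc25 call ended with RLE scaling (adjusted p = 0.0517), with DESeq2 (adjusted p = 0.0515), with no filter (adjusted p = 0.0693) and without L. fuelleborni taste bud replicate 4 (adjusted p = 0.0992) or M. zebra tooth replicates 1 (adjusted p = 0.0565) or 3 (adjusted p = 0.0849). The spindle gene nusap1 had 446 counts in tooth against 407 in taste bud and did not pass (log2FC -0.47, SE 0.35, adjusted p = 0.267, edgeR).

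Of 18 cohesin, condensin and lamina genes, 4 passed the filter and 1 differed, while of 15 with 15 or more counts 1 was called towards tooth and 1 towards taste bud. The condensin II gene ncaph2 had 246 counts in tooth against 357 in taste bud a log2FC of -1.27 in favour of taste bud (SE 0.33, adjusted p = 0.00193, edgeR), while the condensin genes smc2 (122 and 68 counts, adjusted p = 0.526) and smc4 (151 and 73, adjusted p = 0.790) did not pass. The genome stability gene smc6 had 6626 counts in tooth against 13975 in taste bud, nearly all in L. fuelleborni libraries, and did not pass over both species (log2FC 0.55, SE 0.58, adjusted p = 0.400, edgeR). Its log2FC was -1.18 (adjusted p = 0.0839) in L. fuelleborni, at 1421 to 2908 counts a library in tooth and 3615 to 6191 in taste bud, and 2.27 (adjusted p = 0.0456) in M. zebra, at 5 to 22 counts in tooth and 0 to 2 in taste bud. The 4 lists were tested in the same fit as all features, and their members were chosen with earlier results of these data known.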

How the data were processed

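Per the labels' protocols, mRNA of replacement teeth and of taste bud epithelium was sequenced on an Illumina instrument after a strand-marking library preparation. The authors deposited raw read counts per gene feature, 1 column per library, without normalization. HTSeq 0.6.1, TopHat2 2.0.9, limma 3.20.9, SAMtools 0.19 and edgeR 3.6.8 appear in the submitters' processing notes, without their roles. The genome build, annotation and strand setting were not given in the sources used here. Totals ranged from 72226 to 300663 counts.

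From these counts, CPM used TMM library sizes. Differential expression used R 4.3.3 and edgeR 4.0.16: filterByExpr on the 4 groups (minimum count 10, minimum total 15; 2962 features), TMM, a quasi-likelihood fit of 4 group means to all 12 libraries, no block, two-sided tests, and Benjamini-Hochberg adjustment over all features of a contrast at 0.05. A second fit took the 10760 features with 15 or more counts in all. SEs come from the model's information matrix. Folds are ratios of summed counts over summed library sizes. With 1 to 3 counts in a tissue an exact 95% interval is given, and at 0 a floor of 3 counts. Both cover counting error only. DESeq2 1.42.0 and limma 3.58.1 (voom) were alternatives. The edgeR, DESeq2 and unblocked voom fits were run on simulated data with 200 changed genes and the same dispersion for every gene. Only tooth against taste bud over both species was read there, so the run does not cover the blocked fit or the other comparisons.

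Pairs of libraries within a group differed by more than sampling noise (chi-square per degree of freedom 2.81 to 17.6). Every member with 15 or more counts could be named, those past the filter in full, and from each pathway list up to 6 tested genes of lowest adjusted p. The members and lists were chosen with earlier results of these data known. A gene of these lists is not reported here.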

Additional observations from a re-analysis of the deposited data

How the results depend on the processing

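The filter was run again in each fit that left libraries out, so the genes tested could change. Without the 3 libraries richest in ribosomal transcripts, 16 of the cell cycle and replication genes were tested, against 11 with all libraries. The number of genes past the threshold in tooth against taste bud was 8 with all libraries. It was 7 to 9 in the fits that left out a library. In L. fuelleborni it was 4, 8 among features with 15 or more counts and 2 to 6 with a library left out. In M. zebra it was 5, and 3 to 6 with a library left out. For L. fuelleborni against M. zebra in tooth it was 0, 2 with no filter, 2 among features with 15 or more counts, 1 without the 3 libraries richest in ribosomal transcripts and 0 to 2 with a library left out. In taste bud it was 1, 0 with the ribosomal share as a covariate, 0 without those 3 libraries and 0 to 1 with a library left out. The test of whether the tissue difference varied by species had 0 calls, and 0 with a library left out. Without those 3 libraries the cdc40 value in that test was -5.88. The 1 L. fuelleborni taste bud library left there, replicate 4, held 45 of the 50 cdc40 counts of its group. With replicate 4 left out instead, the value was -0.03. The cause of the changes in this paragraph was not tested. These numbers of genes past the threshold, and those with a replicate block below, stand without the share of all features called in the same setting. They therefore do not tell a general change in power from a change in these genes. No call of the main test with all libraries changed direction in its own comparison in any setting. Values that were not called there did. In L. fuelleborni the log2FC of cdc40 was -3.66 without those 3 libraries and up to 2.14 with a library left out. That of rfc2, -0.42 with all libraries, reached 1.09 in a setting other than leaving out a library. RLE scaling put the median log2FC of all features at 0.41, against 0.21 with TMM, and left the 8 calls in place. With a library left out, the mean summed level ran from 7159 to 9951 CPM in tooth and from 3269 to 4435 in taste bud.

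In 3 cases, a pair of libraries of 1 species shares a replicate number across tissues. Their deviations from the group means correlated at -0.00754, 0.0524 and 0.236, not every library correlated best with its own number, and the numbers were not taken to pair samples. With the number as a replicate block in voom and limma (correlation 0.0952), 8, 4, 6, 0, 1 and 0 genes passed in the 6 comparisons, and without the block, a fit added after seeing the data, 8, 4, 5, 0, 1 and 0. Low depth limits most of the 103 genes: 92 were below the filter. The share past the filter was 10.7%, against 11.2% of all features and 15% of features with a gene name.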
